A study of Mus musculus with 8 samples.

Results

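The regions described here are 5-hydroxymethylcytosine (5hmC) peaks shared by adult brain and adult liver and listed in neither embryonic stem cells (ESCs) nor mouse embryonic fibroblasts (MEFs). They were chosen by peak overlap: a nuclear liver peak was taken when it shared at least 1 bp with a brain peak and no bp with any ESC or MEF peak. Of 130408 nuclear liver peaks, 12281 met this rule (9.42%, exact 95% interval 9.26 to 9.58), out of 948510 nuclear peaks in the 6 lists of the series. These 12281 peaks are called members below. The number, and each peak's presence in the 4 lists, were fixed by the choice and are given as a description.

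5hmC was profiled by GLIB-Seq, in which the hydroxymethyl group is glucosylated, oxidized with periodate and biotinylated, so that the DNA carrying it can be captured and sequenced. Brain and liver were taken from C57BL/6 mice of 8 weeks, and the MEFs were primary C57BL/6 fibroblasts, for which the labels give embryonic day 11 and the methods a later day. The ESCs were of the line E14, unmodified in 1 library and carrying a short hairpin RNA in 2 more, 1 against GFP as control (shGFP) and 1 against the Polycomb subunit Suz12 (shSuz12). Each of the 6 was a single library. Brain and liver were whole tissues, so the lists mix all the cell types of each organ. No spread between replicates can be given, no test between tissues was made, and the intervals below cover counting error only.

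5hmC is formed when Tet enzymes oxidize 5-methylcytosine, mostly at CpG dinucleotides. It can be an intermediate on the way to unmethylated cytosine or persist as a mark of its own. In mammals it is abundant in brain, and in many tissues it is found over the bodies of expressed genes and at enhancers.

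The sequences below show what the DNA under such peaks looks like in the 6 genes with most of them, followed by Lpin2 and Hlf, which hold 2 of the 5 members with the highest liver scores and were added after their values were seen. Each is the 150 bp at the middle of the stretch shared by the liver and the brain peak, on the plus strand of mm9, and lies in an intron. The member with the highest liver score was used in each gene, except in Zbtb20, where that member lay over a UTR and the next was taken. Capitals mark CpG dinucleotides, the usual site of the mark.
Zbtb20, chr16:42877467-42877616: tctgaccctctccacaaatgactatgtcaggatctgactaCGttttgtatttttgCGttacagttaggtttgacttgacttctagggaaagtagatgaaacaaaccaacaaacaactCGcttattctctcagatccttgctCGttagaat
Ptprg, chr14:12523461-12523610: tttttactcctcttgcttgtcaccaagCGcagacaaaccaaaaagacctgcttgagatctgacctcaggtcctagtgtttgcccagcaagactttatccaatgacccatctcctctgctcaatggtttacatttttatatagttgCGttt
Nos1ap, chr1:172277031-172277180: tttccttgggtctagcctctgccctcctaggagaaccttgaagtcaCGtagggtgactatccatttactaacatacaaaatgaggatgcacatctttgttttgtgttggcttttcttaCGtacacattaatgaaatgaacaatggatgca
Sox5, chr6:144105981-144106130: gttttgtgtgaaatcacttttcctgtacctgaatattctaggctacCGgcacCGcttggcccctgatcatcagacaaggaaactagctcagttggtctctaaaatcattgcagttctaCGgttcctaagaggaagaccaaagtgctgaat
Magi1, chr6:94184327-94184476: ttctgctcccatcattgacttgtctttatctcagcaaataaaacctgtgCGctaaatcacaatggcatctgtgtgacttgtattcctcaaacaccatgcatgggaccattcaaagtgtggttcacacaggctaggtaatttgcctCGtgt
Chn2, chr6:54092813-54092962: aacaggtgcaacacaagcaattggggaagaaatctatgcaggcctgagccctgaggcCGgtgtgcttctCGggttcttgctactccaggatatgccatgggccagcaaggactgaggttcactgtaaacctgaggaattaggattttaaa
Lpin2, chr17:71592256-71592405: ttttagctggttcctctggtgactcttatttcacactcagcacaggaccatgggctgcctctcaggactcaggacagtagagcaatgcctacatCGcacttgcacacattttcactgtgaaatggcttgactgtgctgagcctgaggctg
Hlf, chr11:90229175-90229324: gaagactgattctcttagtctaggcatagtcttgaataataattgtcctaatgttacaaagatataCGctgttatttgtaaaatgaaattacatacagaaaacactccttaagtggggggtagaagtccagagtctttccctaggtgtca

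The 8 windows held between 1 and 4 CpGs each. The Zbtb20 window held 4 CpGs and the Sox5 window 3. The Lpin2 and Hlf windows, from peaks with liver scores of 1839 and 1474, held 1 CpG each.

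The lists differ in their lowest scores, which bears on every statement of presence or absence. The lowest peak score was 80 in liver and ESCs, 30.00 in brain and MEFs, 50.02 in shGFP ESCs and 30.34 in shSuz12 ESCs, and the lists held between 130409 peaks (liver) and 217026 peaks (MEFs). The lists give no read numbers, so sequencing depth is unknown. A region called free of an ESC peak is a region with no listed ESC peak at a score of at least 80. When peaks under 80 were dropped from all 4 lists, 3939 liver peaks met the rule.

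Among the 8 combinations in which a liver peak can meet the other 3 lists, brain-and-liver-only peaks were 1 of 6 classes of 10922 to 12550 peaks. Liver peaks that met no other list numbered 33911 (26.0%), and liver peaks that met brain, ESC and MEF peaks alike numbered 24803 (19.0%). Adding ESCs to brain and liver gave 12542 peaks (9.62%), and adding MEFs gave 10922 peaks (8.38%).

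Brain-and-liver-only peaks were of intermediate width and score. Their median width was 988 bp (quartiles 814 and 1319, range 391 to 6357), against 863 bp for liver-only peaks, 1524 bp for liver peaks of all 4 cell types and 1016 bp for all liver peaks. Their median liver score was 154.2 (range 80.03 to 1850), against 121.3, 303.6 and 162.4 in the same order. Width and score take part in whether a peak meets another list. How much of these differences comes from how the classes were formed was not tested. The underlying DNA was not used by the rule directly. The median was 1.17 CpGs per 100 bp for brain-and-liver-only peaks, 1.02 for liver-only peaks, 1.65 for peaks of all 4 cell types and 1.32 for all liver peaks. This is the same order as that of the median scores, so CpG content and score cannot be told apart here. The median GC content was 44.8%, 43.9%, 48.6% and 46.1% in that order.

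Most liver peaks of the class lay squarely on their brain counterpart. A single brain peak was met by 11846 members and 2 or more by 435, and together they met 12349 brain peaks. The median member shared 790.0 bp, or 83.5% of its width, with brain peaks, and 10110 members (82.3%) were covered over at least 50% of their width. The midpoints of the liver peak and its brain partner were a median of 203.0 bp apart. The partners were ordinary brain peaks by score, with a median of 49.6 (quartiles 38.0 and 71.1) against 49.8 for all brain peaks. A brain score of at least 80, the lowest score listed in liver, was reached by 2356 partners (19.2%), against 21.1% of all brain peaks. Over the 12281 members, liver and brain scores were weakly correlated (Pearson r of log10 scores 0.114, Spearman correlation 0.111). These are values across peaks of 1 pair of libraries, and the points are not independent.

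ESC and MEF peaks were seldom far away. The nearest ESC or MEF peak was a median of 1120 bp from a member, 810 members (6.60%) had one within 100 bp and 5720 (46.6%) within 1 kb. The 810 members just inside this limit had a median liver score of 146.8 and a median width of 972 bp. The 616 liver and brain peaks just outside it, which shared 1 to 100 bp with an ESC or MEF peak, had medians of 141.0 and 965 bp. At the brain limit, 480 members shared no more than 100 bp with a brain peak and had a median score of 125.4. The 838 liver-only peaks with a brain peak within 100 bp had a median of 122.5. The members were spread over the chromosomes, with a median of 31394 bp between neighbours and 1841 of 12261 neighbouring pairs within 5000 bp. The longest run of consecutive liver peaks that were all members was 6, over 21.9 kb of chr7:72473435-72495352 in Tjp1, which encodes the tight junction protein ZO-1.

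The shGFP and shSuz12 ESC lists were not used in the choice and come from further ESC libraries. The shSuz12 library is no plain repeat, as the paper reports that silencing Suz12 significantly lowered global DNA hydroxymethylation. Of the members, 1006 (8.19%, interval 7.71 to 8.69) overlapped a shGFP peak, 1462 (11.9%, 11.3 to 12.5) a shSuz12 peak, and 2204 (17.9%, 17.3 to 18.6) at least 1 of the 2. The same share was 12.5% for liver-only peaks, 83.9% for peaks of all 4 cell types and 44.8% for all liver peaks. By definition, members and liver-only peaks meet no unmodified ESC peak, while peaks of all 4 cell types do. The classes were thus formed on a related ESC list, and how much of the gap between these shares comes from that was not tested. Both short hairpin lists were met by 264 members (2.15%). The 17.9% that met a peak in these ESCs had none in the unmodified ESC list, whose lowest score is the highest of the 3 ESC lists.

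Brain-and-liver-only peaks lay largely in introns and seldom at promoters. By midpoint, 9805 members (79.8%, 79.1 to 80.5) lay in a protein-coding gene and 2476 (20.2%, 19.5 to 20.9) in none, against 67.2% and 32.8% for liver-only peaks, 77.4% and 22.6% for peaks of all 4 cell types and 71.8% and 28.2% for all liver peaks. Introns held 70.5% of members (69.7 to 71.3), against 59.9% of liver-only peaks, 64.9% of peaks of all 4 cell types and 61.6% of all liver peaks. Of the members, 2507 (20.4%) were in the first intron of a gene's longest transcript and 6011 (48.9%) in a later intron. Over all liver peaks these shares were 19.3% and 41.0%. Exons held 9.32% of members (8.81 to 9.84), between liver-only peaks (7.32%) and peaks of all 4 cell types (12.5%). Coding exons held 4.89% of members. Of all liver peaks, 10.2% lay in exons and 5.78% in coding exons.

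Promoters, taken as the transcription start site (TSS) ± 1 kb, held 199 members (1.62%, 1.4 to 1.86). The promoter share was 2.51% for liver-only peaks, 2.14% for peaks of all 4 cell types and 2.58% for all liver peaks. Per bp, promoters carried members at 1.02 times the genome average, against 1.58 times for liver-only peaks, 1.35 for peaks of all 4 cell types and 1.62 for all liver peaks. Genes carried members at 6.61 times the density outside genes, against 3.42, 5.72 and 4.24 times in the same order, and exons at 1.57 times the density of introns, against 1.45, 2.30 and 1.97 times. The median distance from a member's midpoint to the nearest TSS was 29609 bp, and 4123 members (33.6%) were over 50 kb away. For all liver peaks the median was 23536 bp, and 28.8% were over 50 kb away.

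**Figure D1:**
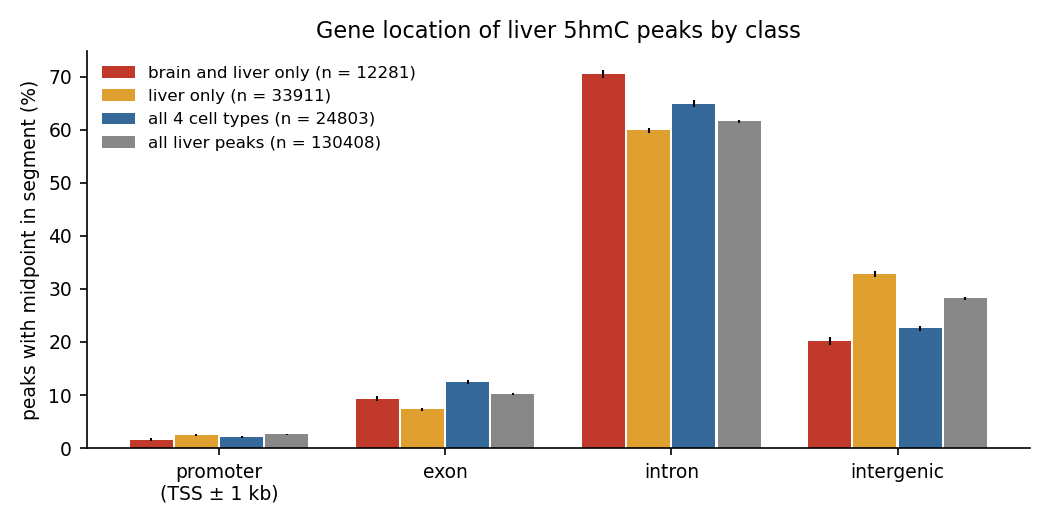
The bars give the percentage of liver peaks whose midpoint lies in each annotated segment for the 12281 brain-and-liver-only peaks and 3 other classes, with exact 95% intervals, and promoters overlap the other segments. Introns hold 70.5% of brain-and-liver-only peaks, the highest intron bar, and promoters 1.62%, the lowest promoter bar.

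Within genes, members were fewer at the start than at the end. The 10% of gene length nearest the TSS held 8.92% of the members' genic midpoints and the 10% at the gene end 11.4%. Peaks of all 4 cell types had the same direction with 9.33% and 13.1%, and liver-only peaks the opposite, with 11.0% and 9.02%. All liver peaks had 10.1% and 11.2%.

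**Figure D2:**
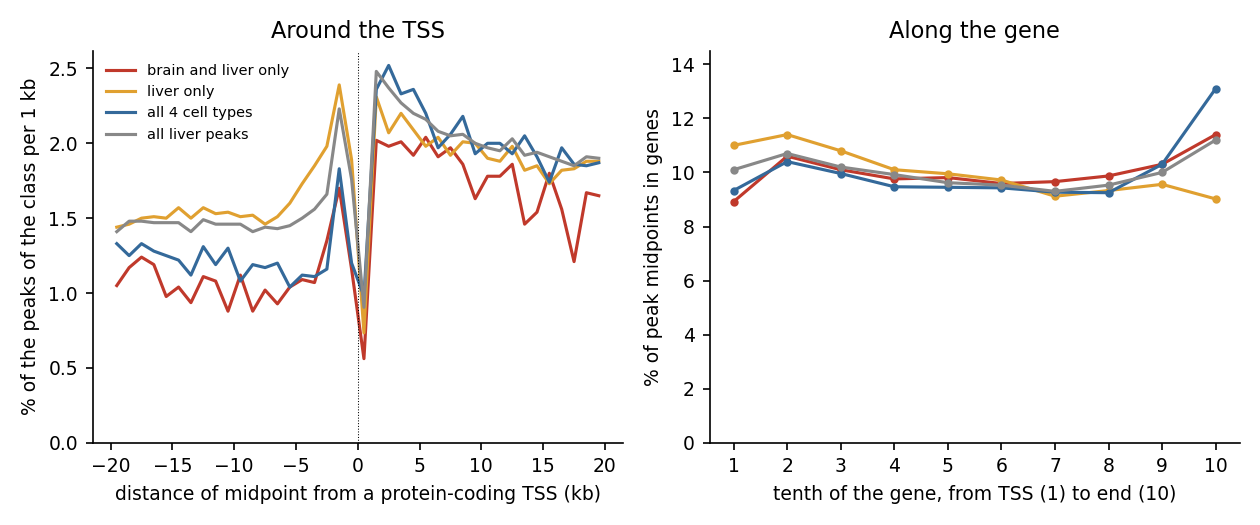
The left panel gives the percentage of each class's peaks per 1 kb around protein-coding TSSs, and the right panel the percentage of midpoints in genes by consecutive stretches of 10% of gene length, each for 4 classes of liver peaks. All 4 lines dip at the TSS, and at the gene end brain-and-liver-only peaks reach 11.4% where liver-only peaks are at 9.02%. All liver peaks are at 11.2% there.

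Some chromosomes carried fewer of these peaks than others. The share of liver peaks that were brain and liver only was 9.42% over all chromosomes, lowest among autosomes on chromosome 8 (411 of 7300 peaks, 5.63%, 5.11 to 6.18) and chromosome 11 (7.07%), and highest on chromosome 14 (11.7%, 10.9 to 12.6) and chromosome 6 (11.3%). On chromosome 8 the ESC list, which the rule excludes, held 15212 peaks, more than on any other chromosome. The ESC list held 13150 peaks on chromosome 11, and 13268 on chromosome 2, where the member share was 9.48%. Whether ESC peak numbers bear on these shares was not tested. On the X chromosome none of 104 liver peaks was a member, which allows a share of up to 2.88%, and the brain list held 22 peaks there.

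Of 22367 protein-coding genes, 4168 (18.6%, 18.1 to 19.2) held at least 1 brain-and-liver-only peak. At least 5 were held by 482 genes, at least 10 by 119 and at least 20 by 17. The peaks were spread thinly: the 20 genes with most of them held 479 members in all, 3.90% of the 12281. Genes with a member were long, with a median span of 51.2 kb against 15.4 kb for all genes, and a long gene can hold more peaks of any class. Per 100 kb of span, genes of 20 to 100 kb held 1.32 members, genes up to 20 kb 1.01 and genes over 200 kb 0.606. The share of liver peaks that were members was 7.11% in genes up to 20 kb and 11.8% in genes over 200 kb.

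Zbtb20, which encodes a zinc finger repressor that silences alpha-fetoprotein in the liver after birth and takes part in hippocampal development, held the most under the rule as given. Among the 20 genes with most members, Ptprg led with 24 when only scores from 80 upward were used (Zbtb20 16), and Prkce with 24 when the lower-scoring 50% of every list was dropped (Zbtb20 22). Its span of 766.7 kb (chr16:42875994-43642715, plus strand) held 43 brain-and-liver-only peaks. In all, Zbtb20 had 170 peaks in liver, 103 in brain, 94 in MEFs, 19 in ESCs, 20 in shGFP ESCs and 18 in shSuz12 ESCs. The ESC lists were the low ones, and MEF peaks were nearly as many as brain peaks. The 43 members lay from 2.14 to 756.5 kb from the TSS, at a median of 570.3 kb, so they sat mainly in the 3′ part of the gene. Their liver scores ran from 81.1 to 998.7, and 1 of the 43 met a shGFP or shSuz12 peak. The highest member of Zbtb20 was 3488 bp wide, overlapped an exon with UTR and had a brain partner with a score of 254.3.

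**Figure D3:**
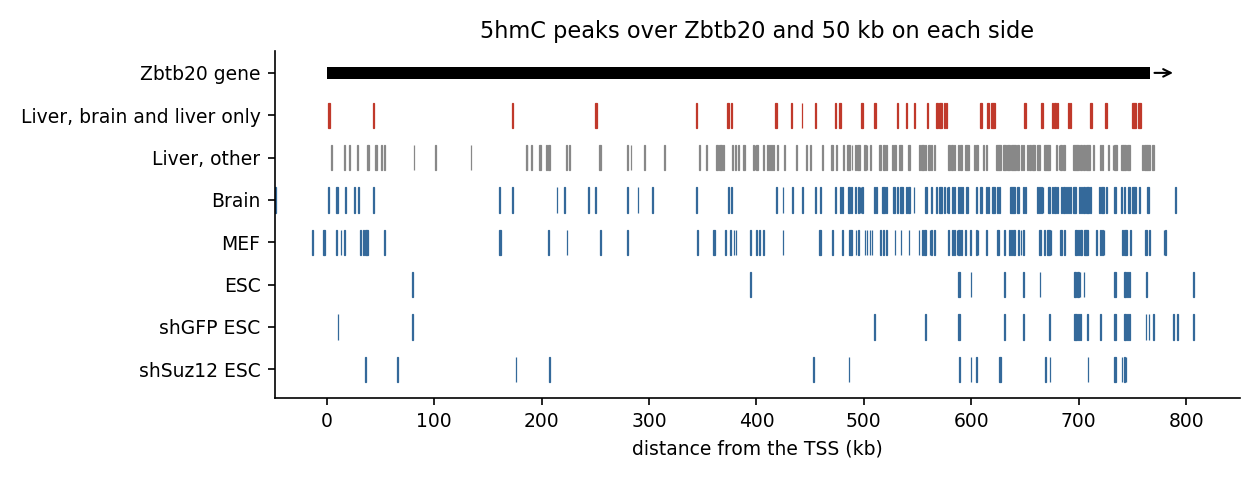
Peaks of each list are drawn as bars along Zbtb20 and 50 kb on each side, in kb from the TSS, with liver peaks split into the 43 brain-and-liver-only peaks and the others. Liver, brain and MEF peaks crowd the 3′ part, where the median brain-and-liver-only peak lies 570.3 kb from the TSS, and the ESC rows hold few peaks.

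Ptprg, the gene of receptor-type protein tyrosine phosphatase gamma, held 40 members over 688.5 kb (chr14:12386046-13074555). It had 147 peaks in liver, 160 in brain, 113 in MEFs, 78 in ESCs, 55 in shGFP ESCs and 61 in shSuz12 ESCs. Unlike Zbtb20, Ptprg had at least 55 peaks in each of the 6 lists. Its highest member scored 333.4 in liver and 130.0 in brain and lay 137490 bp from the TSS and 186 bp from a MEF peak. Of its 40 members, 6 met a shSuz12 peak and none a shGFP peak.

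Nos1ap, which encodes an adaptor of neuronal nitric oxide synthase, had the highest share among the 20 genes: 29 of its 76 liver peaks (38.2%) were brain and liver only. The other lists held 57 peaks in brain, 35 in MEFs, 8 in ESCs, 8 in shGFP ESCs and 12 in shSuz12 ESCs over 287.2 kb (chr1:172232799-172519992). Its highest member scored 419.6 in liver and 92.1 in brain, and the nearest MEF peak was 14169 bp and the nearest ESC peak 27133 bp away. Among the highest members of the 20 genes, those of Itpr2 (31364 bp) and Nos1ap lay farthest from an ESC peak. Short genes within the Nos1ap span are 1700015E13Rik, Gm10174 and Gm7694.

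Sox5, a transcription factor of the SoxD group that acts in cartilage and neuron development, held 27 members among 235 liver peaks. Brain had 176 peaks in Sox5, MEFs 233, ESCs 75, shGFP ESCs 65 and shSuz12 ESCs 57. Its 27 members began only 104.2 kb from the TSS and had a median distance of 690.6 kb. The highest Sox5 member, with a score of 867.1 and a width of 4243 bp, had an ESC peak 106 bp and a MEF peak 116 bp away, so that peak was close to the limit of the rule.

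Magi1, a scaffold protein of cell junctions, also held 27 members, among 175 liver peaks. It had 149 peaks in brain, 132 in MEFs, 95 in ESCs, 72 in shGFP ESCs and 81 in shSuz12 ESCs. Chn2, which encodes the Rac GTPase-activating protein beta-chimaerin, held 24 members among 93 liver peaks within 262.3 kb, the shortest span of the 20. Chn2 had 77 peaks in brain, 67 in MEFs, 35 in ESCs and 26 in each short hairpin list.

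Both inositol trisphosphate receptor genes among the 20, which encode calcium release channels of the endoplasmic reticulum, held similar numbers. Itpr2 held 23 members of 86 liver peaks, with 96 peaks in brain, 83 in MEFs and 24 in ESCs. Itpr1 held 20 members of 120 liver peaks, with 81 in brain, 77 in MEFs and 62 in ESCs. Of 2 further signalling enzymes, Ppp3ca, a catalytic subunit of calcineurin, held 18 of 70, and Prkce, protein kinase C epsilon, 21 of 177. Itpr2 overlaps Gm17706 and Prkce overlaps Gm10309.

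Of the transcriptional regulators among the 20, Nfia, an NFI family transcription factor needed for glial development, held 21 members of 118 liver peaks. Nfia had 91 peaks in brain and 110 in MEFs but 12 in ESCs, 11 in shGFP ESCs and 7 in shSuz12 ESCs, and none of its 21 members met either short hairpin list. Its span overlaps E130114P18Rik. Klf12, a Krüppel-like repressor, held 20 of 80, with members at a median of 50.1 kb from the TSS. Arid1b, a subunit of the BAF chromatin remodelling complex, held 18 of 120, and Rora, the orphan receptor ROR alpha, 18 of 134.

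The others were Snd1, a Tudor domain protein of RNA metabolism whose span holds Lrrc4 (24 of 143), Fbxl17, a substrate receptor of a ubiquitin ligase (22 of 128), Arhgap26, a GTPase-activating protein whose span overlaps Fgf1 and 9630014M24Rik (22 of 157), Dock4, a guanine nucleotide exchange factor (20 of 91), and Snx29, a sorting nexin (20 of 67, 29.9%). Fgfr2, a fibroblast growth factor receptor, was counted with 22 of 233 over an annotated span of 3009 kb, which a read-through transcript extends over 32 other genes. Without that transcript its span was 104.3 kb and held 2 members of 19 liver peaks.

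**Figure D4:**
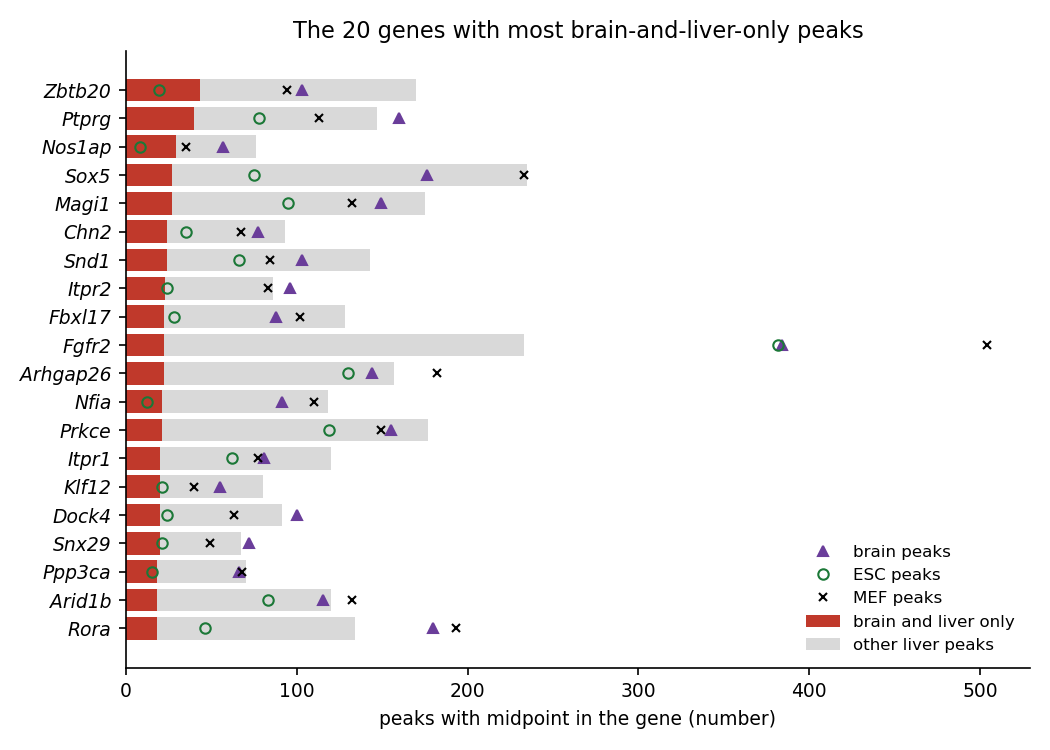
Bars give the number of liver peaks by midpoint in the 20 genes with most brain-and-liver-only peaks, split into these (red) and other liver peaks (grey), and symbols give brain, ESC and MEF peaks. Zbtb20 leads with 43, and Fgfr2 is drawn over its 3009 kb read-through span.

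Among genes with at least 5 members, small genes led by density. Pdia6, a protein disulfide isomerase of the endoplasmic reticulum, held 5 of 8 liver peaks in 18.2 kb, or 27.4 members per 100 kb, in a span that overlaps Atp6v1c2. Tmem106b, a lysosomal membrane protein, held 5 of 9 (25.6 per 100 kb), and no ESC or MEF peak lay in it. Fdx1, the mitochondrial ferredoxin of steroid hydroxylation, held 5 of 8 (24.7 per 100 kb), with 0 ESC and 2 MEF peaks.

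Ddhd1, a phospholipase of phosphatidic acid, stood out by number in this group, with 15 of 29 liver peaks in 65.0 kb (23.1 per 100 kb), 22 brain, 6 ESC and 10 MEF peaks. In 5730508B09Rik 5 of 6 liver peaks were members, the highest share of the 10 densest genes (83.3%), with 7 brain peaks and none in the 4 embryonic cell lists. The others were Sav1, a Hippo pathway adaptor (22.7 per 100 kb, overlapping Gm3086), Spg20, the gene of spartin (19.8), Klhl24 (16.6), Fam120b (16.1) and Srd5a1, steroid 5 alpha-reductase (15.8, overlapping Nsun2).

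A protein-coding TSS lay under 54 members (0.440%, 0.330 to 0.573), against 0.495% of liver-only peaks, 1.36% of peaks of all 4 cell types and 0.905% of all liver peaks. Of the 55 TSSs these members covered, 36 also lay under a brain peak, and at the others only the liver peak reached the TSS. The highest of these by liver score lay over the start of Bcat2, the mitochondrial branched-chain aminotransferase, with a liver score of 1161. Its brain partner, with a score of 32.9, lay downstream and did not reach the TSS of Bcat2. Next were Pdgfa, platelet-derived growth factor A (618.7 in liver, 48.5 in brain), Car15, a carbonic anhydrase (595.7 and 78.2), and Foxk2, a forkhead factor (571.6 and 72.8). The Car15 peak lay 55 bp from an ESC peak and 75 bp from a MEF peak, and the Pdgfa peak 33 bp from a shGFP peak. The Pdgfa peak was the richest in CpG of these, with 5.51 per 100 bp, and the Foxk2 peak the poorest, with 0.962.

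The other TSSs among the 10 were those of Mcts2 (556.9), A930018M24Rik (536.9), Kmo, the kynurenine monooxygenase (527.7), Tssc1 and Ttc15, which face away from each other under 1 peak (431.5), and Fkbp14 (328.3). The members over the starts of A930018M24Rik, Kmo and Fkbp14 met a shGFP peak, and that of Kmo a shSuz12 peak as well. A brain peak covered 6 of these 10 starts, and at Bcat2, Mcts2, Tssc1 and Ttc15 only the liver peak did.

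The 5 members with the highest liver scores, named after their values were seen, lay in Mocs1 (1850 in liver, 82.3 in brain), Lpin2 (1839 and 50.4), 1110038D17Rik (1678 and 42.4), Hlf (1474 and 190.8) and Acox2 (1454 and 49.8). Mocs1 acts in molybdenum cofactor synthesis, Lpin2 is a phosphatidate phosphatase, Acox2 oxidizes bile acid precursors in peroxisomes and Hlf is a clock-controlled transcription factor. These peaks were 4048 to 5557 bp wide, while the stretch shared with brain was 821 to 2777 bp, so much of each lay outside the brain peak. Hlf had the highest brain score of the 5.

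Gene lists were read against the share of all liver peaks that were members (9.42%) and the share of all genes that held one (18.6%). The list counts are descriptions, and a share near these values says nothing about a list. All list peaks lie in genes, while the 9.42% includes intergenic peaks. Within genes the share was 7.11% for spans up to 20 kb and 10.2% for 20 to 100 kb. It was 11.5% for 100 to 200 kb and 11.8% over 200 kb. Whether gene location or span bears on the list shares was not tested. In the circadian clock list, the transcription factors, repressors and kinases of the daily feedback loop, 13 of 23 genes (56.5%) held a member, and 52 of 349 liver peaks (14.9%, 11.3 to 19.1) were members. Rora alone held 18 of these 52. The genes of this list had a median span of 32.9 kb, and 21 of 23 had a liver peak. Among all genes the median span was 15.4 kb, and 12532 of 22367 had a liver peak. Of the activators, Arntl (BMAL1) held 8 of 40 liver peaks, with 22 peaks in brain, 25 in ESCs and 16 in MEFs, and Npas2 held 4 of 30. Of the repressors, Per3 held 4 of 17, with 16 peaks in brain, 14 in ESCs and 7 in MEFs. Per1, Nr1d1 and Dbp, short genes of 14.7, 7.40 and 5.07 kb, held none. The output factor Hlf held 4 of 19.

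In the insulin and nutrient signalling list, 20 of 30 genes (66.7%) held a member, and 73 of 521 liver peaks (14.0%, 11.1 to 17.3) were members. The genes of this list are long, with a median span of 74.0 kb. The receptor gene Insr held 8 of 33 liver peaks, with 18 peaks in brain, 13 in MEFs and 8 in ESCs. Irs1, the receptor's docking protein, held 6 of 16, and Irs2 none of 5. Downstream, Rptor, the raptor subunit of the mTOR complex, held 8 of 77, and the kinase Gsk3b 7 of 56. Igf1r, the related receptor, held 1 of 19, while brain had 94, MEFs 103 and ESCs 59 peaks there.

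In the list of Tet, Dnmt and methyl-CpG binding proteins, which write, oxidize and read DNA methylation, 7 of 15 genes (46.7%) held a member, and 24 of 150 liver peaks (16.0%, 10.5 to 22.9) were members. The median span of its genes was 45.7 kb, against 15.4 kb for all genes. The 16.0% share lay on the other side of the share of all peaks under 2 higher score cutoffs, applied to every list. It was 8.60% when the lower-scoring 50% of every list was dropped and 2.67% when only scores from 80 upward were used. The interval of this list contained the share of all peaks with 50% of both peaks shared (6.22 to 16.7 against 6.52%). It did so too with no ESC or MEF peak within 1 kb (4.20 to 13.6 against 5.03%). Tet3 held 7 of 29 liver peaks, with 26 in brain, 25 in MEFs and 17 in ESCs, and Tet2 held 3 of 11. Tet1, the main Tet enzyme of ESCs, held none and had 1 liver peak against 23 in ESCs. Mbd2 held 5 of 20, Dnmt3a 4 of 46, and Dnmt1 none of 5.

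In the nuclear hormone receptor list, 10 of 30 genes held a member and 38 of 359 liver peaks were members (10.6%, 7.60 to 14.2), an interval that contains the 9.42% of all liver peaks. The median span of its genes was 52.7 kb, against 15.4 kb for all genes. From the brain side 15.9% of the list's brain peaks (11.8 to 20.7) met a liver peak and no ESC or MEF peak, against 7.97% of all brain peaks. Within it, the receptors for adrenal steroids held most. The mineralocorticoid receptor gene Nr3c2 held 10 of 46 liver peaks, with 41 peaks in brain, 35 in MEFs and 18 in ESCs. The glucocorticoid receptor gene Nr3c1 held 9 of 20, with 14 in brain, 9 in MEFs and 3 in ESCs. Nr2c1, an orphan receptor, held 5 of 12, and Thrb, a thyroid hormone receptor, 4 of 50, while Esr1 held 1 of 38.

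In the hepatocyte transcription factor list, 4 of 16 genes held a member and 7 of 176 liver peaks were members (3.98%, 1.61 to 8.02). Nr5a2 held 2 of 44, Nr1h4, the bile acid receptor, 2 of 28, Prox1 2 of 16 and Onecut2 1 of 23, and Hnf4a none of 15. Brain had 42 peaks in the whole list. With peaks counted from the brain side, 19.0% of the brain peaks in this list met a liver peak and no ESC or MEF peak, against 7.97% of all brain peaks. The liver-side interval of this list contained the share of all peaks with scores from 80 upward (0.353 to 4.90 against 3.02%). It did so too with no ESC or MEF peak within 1 kb (0.623 to 5.72 against 5.03%). In the hepatocyte marker list, 4 of 64 liver peaks were members (6.25%, 1.73 to 15.2), an interval that contains the 9.42% of all liver peaks. Of these 4, 3 were among the 27 liver peaks of Cps1, the first enzyme of the urea cycle, and 1 among 12 in Trf, transferrin. Alb had no liver peak at all.

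Of the markers of other cell types, the neuron list had 1 member among 58 liver peaks (1.72%, 0.0436 to 9.24), in Rbfox3, and 1 of 20 genes held it, while brain had 194 peaks in these genes. Of the 58, 19 lay in Syt1 and 14 in Rbfox3, so they are not independent. Under both score cutoffs the neuron interval contained the share of all peaks (0.141 to 27.3 against 10.8%, and 0 to 6.16 against 3.02%). It also contained that share with no ESC or MEF peak within 1 kb (0 to 6.16 against 5.03%). Without short hairpin peaks it did so too (0.0436 to 9.24 against 7.73%). From the brain side, and with 50% of both peaks shared, the neuron interval lay below that share. The astrocyte and oligodendrocyte list had 4 of 50 (8.00%, 2.22 to 19.2), with 2 in the glutamate transporter gene Slc1a2 and 1 each in Aldh1l1 and Cnp. The endothelial list had 3 of 56 (5.36%), 1 each in Pecam1, Eng and Vwf. The macrophage and microglia list had 1 of 35 (2.86%), in Mertk, and the fibroblast list 1 of 23 (4.35%), in Col5a1. The intervals of these 4 lists contain the 9.42% of all liver peaks, and the astrocyte and oligodendrocyte share changed sides under 5 alternatives. A liver peak lay in 7 of the 20 neuronal markers, and the defining markers Syn1, Snap25 and Syp were among those without. Of the 15 macrophage markers, 8 had a liver peak. Emr1 and Ptprc were among those without, and Emr1 had no peak in any of the 6 lists.

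In the pluripotency list none of 18 liver peaks was a member, which allows a share of up to 16.7%, and none of 15 genes held one. The mitochondrial respiratory chain list, short genes used in every cell, was near the 9.42% of all liver peaks. It had 7 of 77 liver peaks (9.09%), 4 of them in Ndufs4, 2 in Atp5c1 and 1 in Cyc1.

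**Figure D5:**
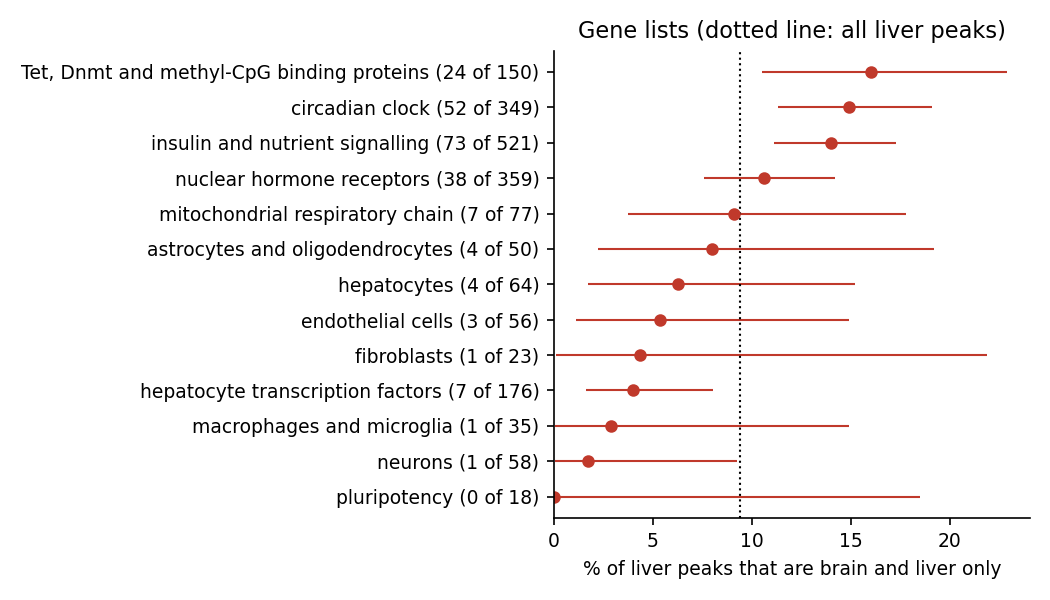
Points give the percentage of liver peaks in each list's genes that are brain and liver only, with exact 95% intervals and the counts beside the names, and the dotted line marks 9.42% for all liver peaks. The circadian clock (14.9%), insulin (14.0%) and Tet and Dnmt (16.0%) intervals lie right of the line. Those of the hepatocyte transcription factors (3.98%) and neurons (1.72%) lie left of it. The Tet and Dnmt share changes sides under higher score cutoffs and the hepatocyte transcription factor share when brain peaks are counted. Under some alternatives each of these intervals contains the share of all peaks. The line includes intergenic peaks. Within genes the share was 7.11% for spans up to 20 kb, 10.2% for 20 to 100 kb and 11.8% over 200 kb.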

How the data were processed

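5hmC was profiled by GLIB-Seq in 6 libraries; 2 RNA-Seq libraries were not analysed here. The authors mapped reads to mm9 with Bowtie 0.12.7 (unique hits, up to 2 mismatches), collapsed redundant reads and called peaks library by library with MACS 1.4.1, after CASAVA 1.8 base calling. The deposited files give the authors' peaks with a MACS score, for which neither threshold nor control is given in the sources used here.

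Mitochondrial peaks were left out. Peaks were placed by midpoint on the protein-coding genes of GENCODE M1 (NCBIM37, the assembly of mm9), where promoters are the TSS ± 1 kb. CpG and GC were counted in the reference under each liver peak. Shares have exact (Clopper-Pearson) 95% intervals, and the limit for a count of 0 is 3 counts. Python 3.11.15, numpy 2.4.6, pandas 2.3.3, scipy 1.17.1, pysam 0.24.0, samtools 1.23.1 and matplotlib 3.10.9 were used, and the overlap code was tested on simulated peaks.

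Named genes are the 20 with most members, the 10 with most per 100 kb of span among those with at least 5, the 10 with the highest-scoring member over their TSS and up to 4 genes of each list with most members; genes named for a low or absent count, the 5 highest members and Tjp1 were chosen after their values were seen. The members, lists and rules were chosen with earlier results of these data known. Sequences over UTRs are not printed. Alternatives were higher score cutoffs in every list, stricter overlaps and distances, the short hairpin lists as further exclusions, brain peaks in place of liver peaks, other promoter widths, any overlap in place of midpoints, all annotated genes and, chosen after seeing the data, spans without read-through transcripts. A higher cutoff can also drop ESC and MEF peaks that exclude, so liver peaks outside the members can enter.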

Additional observations from a re-analysis of the deposited data

How the results depend on the processing

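No paired analysis was possible because each tissue has 1 library. Of 57 summary values of the members under the alternatives, 27 stayed within their interval (for the number, within 1.5 times) and 30 did not. For these the cause was not tested. When the lower-scoring 50% of every list was dropped there were 7054 members, with a median width of 1454 bp, 1.23% in promoters, 16.4% intergenic, 12.8% of genes with a member, 1.29 CpGs per 100 bp and 15.7% under a shGFP or shSuz12 peak. Using only scores from 80 upward, the same values were 3939, 1105 bp, 0.939%, 14.6%, 7.52%, 1.28 and 4.57%. With at least 50% of both the liver and the brain peak shared, 15.2% of genes held a member. With no ESC or MEF peak within 1 kb there were 6566 members, in 12.1% of genes, with 1.15 CpGs per 100 bp and 16.1% under a short hairpin peak. With no shGFP or shSuz12 peak either, the median width was 973 bp, 16.3% of genes held a member and the median CpG was 1.16, and with brain peaks in place of liver peaks it was 1.20. When any overlap counted, not the midpoint, promoters held 3.6%, exons 25.6% and intergenic DNA 18.9%. With all annotated genes promoters held 2.55% and intergenic DNA 18.5%. Promoters of 2 kb on each side held 4.84% and of 500 bp 0.375%.

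List shares passed to the other side of the share of all peaks in 13 of 78 cases. Without the lower-scoring 50% these were hepatocytes (12.9%), Tet, Dnmt and methyl-CpG binding proteins (8.60%) and the respiratory chain (12.2%). With scores from 80 upward they were astrocytes and oligodendrocytes (4.0%) and the Tet and Dnmt list (2.67%). Astrocytes and oligodendrocytes also did so with 50% of both peaks (8.00%), without short hairpin peaks (8.00%), with no ESC or MEF peak within 1 kb (6.00%) and from the brain side (10.4%). The respiratory chain did so with no peak within 1 kb (5.19%) and from the brain side (13.7%), as did, from the brain side, hepatocytes (8.33%) and hepatocyte transcription factors (19.0%). The circadian clock, insulin and nuclear hormone receptor shares stayed above the share of all peaks under all 6 alternatives for lists, but not all their intervals did. The nuclear hormone receptor interval lay above it from the brain side and with no ESC or MEF peak within 1 kb (8.36%, 5.71 to 11.7, against 5.03%). It contained that share under both score cutoffs, with 50% of both peaks (4.79 to 10.4 against 6.52%) and without short hairpin peaks. The circadian clock interval contained it under both score cutoffs (9.66 to 19.9 against 10.8%, and 2.86 to 7.68 against 3.02%). The insulin interval did so with no peak within 1 kb (lower limit 4.56 against 5.03%). Of 140 member counts of the 20 genes, 49 left the range within 1.5 times of the count given. Zbtb20 held 16 to 44 members over the alternatives, Nos1ap 8 to 29, Snx29 6 to 20 and Ppp3ca 5 to 18. The unequal lowest scores, single libraries and unknown depth limit every absence in ESCs and MEFs.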

Other observations

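Short sequence motifs were counted on both strands in the 300 bp around each liver peak's midpoint, with no test. A FOXA motif (TGTTTAC) stood in 5.26% of brain-and-liver-only peaks (interval 4.87 to 5.67), 5.28% of liver-only peaks, 4.36% of peaks of all 4 cell types and 4.74% of all liver peaks. A C/EBP motif (TTGCNNAA) stood in 12.4%, 12.7%, 10.6% and 11.8% in the same order. An HNF4 motif (CAAAGTCCA) stood in 0.708%, 0.587%, 0.419% and 0.557%. The NFI palindrome, TGGC and GCCA separated by 5 bases, stood in 0.774% of members (0.626 to 0.945). It stood in 0.684% of liver-only peaks, 1.47% of peaks of all 4 cell types and 1.10% of all liver peaks. The cyclic AMP response element (TGACGTCA) stood in 0.309%, 0.307%, 0.540% and 0.439% in the same order. An AP-1 motif (TGANTCA) stood in 8.17% of members, 8.49% of liver-only peaks, 9.54% of peaks of all 4 cell types and 9.29% of all liver peaks. The motif of PAR bZIP factors such as Hlf (TTATGTAA) stood in 1.34%, 1.30%, 0.923% and 1.17%. The E-box (CACGTG) stood in 9.24%, 8.66%, 9.44% and 9.31% and the ROR motif (TAGGTCA) in 3.23%, 3.36%, 3.25% and 3.29%. CpG and GC content differ between the classes and bear on these shares.

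Among genes without protein, 206 members (1.68%) overlapped a lincRNA gene. The share was 1.88% for liver-only peaks, 2.24% for peaks of all 4 cell types and 2.06% for all liver peaks. A miRNA gene lay under 12 members (0.0977%, 0.0505 to 0.171), against 0.0649%, 0.226% and 0.142% in the same order. The genes under members included the cluster of Mir17, Mir18, Mir19a, Mir20a, Mir19b-1 and Mir92-1 on chromosome 14, and Mir30a, Mir30c-2, Mir107 and Mir592.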
